A study of Mus musculus with 2 samples.

Results

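Open chromatin at the nuclear genes for mitochondrial machinery was described from DNase-seq of whole mouse embryos. The members were the protein-coding genes of the GENCODE M21 annotation whose symbols start with Mrpl or Mrps and a digit, or with Nduf. This rule used gene names only and took 124 of 21938 protein-coding genes. The mitochondrial ribosomal genes numbered 78, with 49 for the large subunit (Mrpl) and 29 for the small subunit (Mrps). The Nduf genes numbered 46 and are called complex I genes here. They comprised 7 core subunits, 29 accessory subunits, 8 assembly factors (Ndufaf) and the pair Ndufa4 and Ndufa4l2.

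The embryos were of the B6NCrl strain, healthy, of embryonic day 10.5, with males and females pooled, and carried no treatment or engineered allele in the labels. The 2 biological replicates had the same donor label and formed 1 group, which leaves no conditions to contrast, and no test was run. DNase I cuts DNA where nucleosomes are displaced, and a stretch with a dense set of cuts is called a peak. The authors deposited 207946 peaks for replicate 1 and 229568 for replicate 2 on nuclear chromosomes, each 150 bp wide. Every peak carried a whole-number score from the authors, used here as its strength. The median score was 41 among the peaks of replicate 1 and 50 among those of replicate 2. The scores ran from 2 to 148 and from 3 to 149, their definition is not given in the sources used here, and the files do not give the sequencing depth. A whole embryo mixes many cell types. Of 15 marker genes of neural tube, somite, heart, limb bud and primitive red cells, 12 had a promoter peak in both replicates. The 3 without were the red cell genes Gata1, Hbb-bh1 and Klf1. Of 6 genes of adult photoreceptor, epidermis and pancreas, 3 (Cela1, Krt10 and Lor) had such a peak. So did 69.7% of all protein-coding genes, and these counts therefore say little about which tissues were present. In a mixture of cell types a weaker peak in every cell and a peak in fewer cells cannot be told apart.

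The mitochondrial ribosome translates the few proteins that mitochondrial DNA encodes, among them the hydrophobic subunits of the respiratory chain. All of its proteins are encoded in the nucleus and imported. Complex I, the NADH dehydrogenase that opens the respiratory chain, is built from nuclear and mitochondrial gene products with the help of assembly factors, so both families have to be made in nearly every cell. NRF1, the ETS factor GABP and YY1 are known regulators of nuclear genes for mitochondrial proteins.

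The DNA under the strongest promoter peaks is shown to let the later counts of sequence words be read against real promoters. All are on mm10, printed 5′ to 3′ on the strand of the gene, and capitals mark an NRF1, ETS, YY1 or NFY word, on either strand. Mrps12 is shown over its whole peak, at chr7:28741816-28741965 on the minus strand, because this peak held 5 bases of untranslated region. It held the NFY word and, in lower case, the SP/KLF word. For Ndufv1 the stretch is chr19:4012777-4012885 on the minus strand, and its peak held none of the 8 words.

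Mrps12: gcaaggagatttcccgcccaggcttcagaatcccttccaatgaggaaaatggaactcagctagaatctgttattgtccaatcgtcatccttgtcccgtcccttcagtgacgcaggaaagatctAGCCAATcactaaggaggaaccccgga
Ndufv1: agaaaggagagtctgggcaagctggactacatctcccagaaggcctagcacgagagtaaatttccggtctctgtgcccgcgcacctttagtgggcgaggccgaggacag

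The strongest member of each family with the NRF1 word was Mrpl12, at chr11:120484536-120484642 on the plus strand, and Ndufaf5, at chr2:140170565-140170678 on the plus strand. The strongest with the ETS word were Mrpl18, at chr17:12916313-12916342, and Ndufs1, at chr1:63176816-63176845, both on the minus strand. Stretches are cut so that at most 30 bases of untranslated region are printed.

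Mrpl12: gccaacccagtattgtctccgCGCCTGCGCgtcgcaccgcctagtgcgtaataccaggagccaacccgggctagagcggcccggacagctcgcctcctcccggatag
Ndufaf5: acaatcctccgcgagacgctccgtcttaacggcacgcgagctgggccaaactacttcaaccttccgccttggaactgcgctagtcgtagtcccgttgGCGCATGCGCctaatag
Mrpl18: aactgaaaacgCCGGAAGTagggggctgcg
Ndufs1: tcggctACTTCCGGcggaactgcaggtcca

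The question put to these promoters was how often and how strongly they were open, and whether ribosomal and complex I genes differed. A gene counted as open if, in both replicates, at least 1 peak was no more than 1 kb from an annotated transcription start site (TSS) of the gene. All 124 members were open, 78 of 78 ribosomal and 46 of 46 complex I genes. Over all protein-coding genes 15300, or 69.7%, were open by the same rule. With a window of 500 bp in place of 1 kb, Ndufa4l2 and Ndufa13 no longer had a peak in both replicates. With the 5'-most TSS of each gene alone, Mrpl35 and Mrps24 had none. Those last genes have 3 and 5 annotated TSSs, and their strongest peaks lay at other TSSs than the 5'-most.

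The strength of a gene was the highest score within 1 kb of its TSSs. The ribosomal genes had a median strength of 116 in replicate 1 and 122.5 in replicate 2, and the complex I genes 115 and 126.5. The ribosomal median was thus 1 above the complex I median in replicate 1 and 4 below it in replicate 2. The mean difference was -1.50 ± 3.54 (SD, n = 2 replicates), so its sign changed between replicates and its size was within their spread. Over all open genes the medians were 109 and 118. Of the members, 79 (63.7%) in replicate 1 and 85 (68.5%) in replicate 2 lay above the median of all open genes.

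Members were less often weak than open promoters in general, and their share among the strong ones differed between replicates. Only 3 members (2.42%) in replicate 1 and 1 (0.806%) in replicate 2 fell below the lower quartile of all open genes, at 83 and 96. Above the upper quartile, at 124 and 129, were 30 members (24.2%) and 39 members (31.5%). By construction about 25% of all open genes lie beyond each of these limits.

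**Figure D1:**
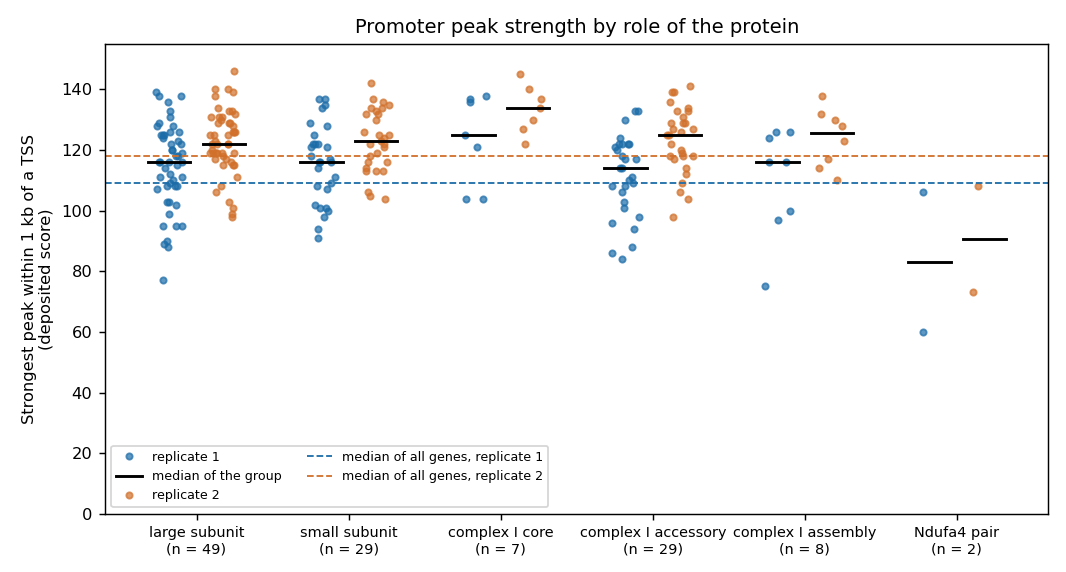
Strength of the strongest promoter peak of each member (points, deposited score, vertical axis) by role of the protein, for replicate 1 (blue) and replicate 2 (orange). Black bars are medians of the role and dashed lines the medians of all open protein-coding genes, 109 and 118; the subunit groups sit around and above those lines, and Ndufa4l2 is the lowest point.

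Within the mitochondrial ribosome the large subunit genes had median strengths of 116 and 122 and the small subunit genes 116 and 123. The strongest ribosomal promoter was that of Mrpl18, with 139 in replicate 1 and 146 in replicate 2. It was followed by Mrps12, the homologue of a bacterial protein of the decoding site, with 137 and 142. Mrpl12, part of the flexible stalk that recruits translation factors, and Mrpl41 each had 138 and 140, and Mrpl48 had 136 and 138. Of these 5, Mrpl18 was highest and Mrpl48 lowest in both replicates.

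At the other end stood Mrpl3, the homologue of a bacterial protein near the peptidyl transferase centre, with 77 and 98. Mrpl13 had 89 and 99, Mrpl23 had 88 and 101, Mrps5 had 91 and 105 and Mrpl27 had 90 and 106. In each replicate all 5 of the strongest ribosomal promoters lay above all 5 of the weakest, which is how they were chosen. Mrps36, kept here by its symbol although its protein is now assigned to the oxoglutarate dehydrogenase complex, had 121 and 137. Across the family the strengths ran from 77 to 139 in replicate 1 and from 98 to 146 in replicate 2.

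The 7 core subunits of complex I, which carry the NADH site, the flavin and the iron-sulfur clusters, had median strengths of 125 and 134. The accessory subunits had medians of 114 and 125 and the assembly factors 116 and 125.5. The core median exceeded the accessory median by 11 in replicate 1 and 9 in replicate 2, or 10 ± 1.41 (SD, n = 2 replicates). Both replicates read the same genes, so this SD does not cover the spread among genes, and the core median rests on 7. The genes of the groups overlapped: in replicate 1 core genes ran from 104 to 138 and accessory genes from 84 to 133.

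Among the core genes Ndufv1, whose protein binds NADH and flavin, had 138 and 145, the highest of all complex I genes. Ndufs8, a carrier of iron-sulfur clusters, had 137 and 134, and Ndufv2 had 121 and 137. Ndufs1, the largest iron-sulfur subunit, had 125 and 130. Ndufs3 with 104 and 127 and Ndufs7 with 104 and 122 were the lowest, below the median of all open genes in replicate 1 and above it in replicate 2.

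The strongest accessory subunits were Ndufa6 and Ndufb5, each with 133 and 139, and Ndufa2 with 130 and 141. By mean strength, the weakest of all complex I genes were Ndufa4l2 with 60 and 73 and Ndufaf1, an early assembly factor, with 75 and 110. They were followed by the X-linked Ndufa1 with 88 and 98. Ndufb11, also X-linked, had 86 and 104, and Ndufc2 had 96 and 106. The range over the family was 60 to 138 in replicate 1 and 73 to 145 in replicate 2.

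Ndufa4 and Ndufa4l2 are paralogues that carry the Nduf prefix but are not complex I subunits; Ndufa4 is now assigned to complex IV, and Ndufa4l2 is known as a gene induced by low oxygen. Ndufa4 had 106 and 108, below the median of all open genes in both replicates. Ndufa4l2, with 60 and 73, was the weakest of the 124 members in both replicates. Its peaks lay 689 and 709 bp from its only annotated TSS, inside the gene. Its CpG ratio, the observed over expected number of CpG dinucleotides within 500 bp of the 5'-most TSS, was 0.186, against a member median of 0.722 and a median of 0.552 over all protein-coding genes. Hotspots are broader regions of enriched cutting that the authors called separately: that at the Ndufa4l2 peak was 177 bp wide in replicate 1 and 5740 bp in replicate 2. The called width at this gene thus differed widely between replicates. Widths were measured after hotspots at most 1 bp apart were joined, and over all open genes their medians were 812 and 1457 bp. The files do not give the sequencing depth, and the reason for the difference was not tested.

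Replicate 2 had the higher score at 111 members, replicate 1 at 7, and 6 were equal. Of the 15300 open genes, replicate 2 was higher at 12739, replicate 1 at 1996, and 565 were equal. The median shift was 8.5 for the members, 7 for ribosomal and 11.5 for complex I genes, and 8 for all open genes. The largest departures from that shift among complex I genes were at Ndufaf1 (75 to 110), Ndufa10 (84 to 119) and Ndufs3 (104 to 127). Among ribosomal genes they were at Mrpl3 (77 to 98) and Mrps7 (94 to 114), and in the other direction at Mrps14 (137 to 134) and Mrps23 (129 to 126). Ndufaf1, Ndufa10 and Mrpl3 were weak in replicate 1 and moved toward the other members in replicate 2.

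**Figure D2:**
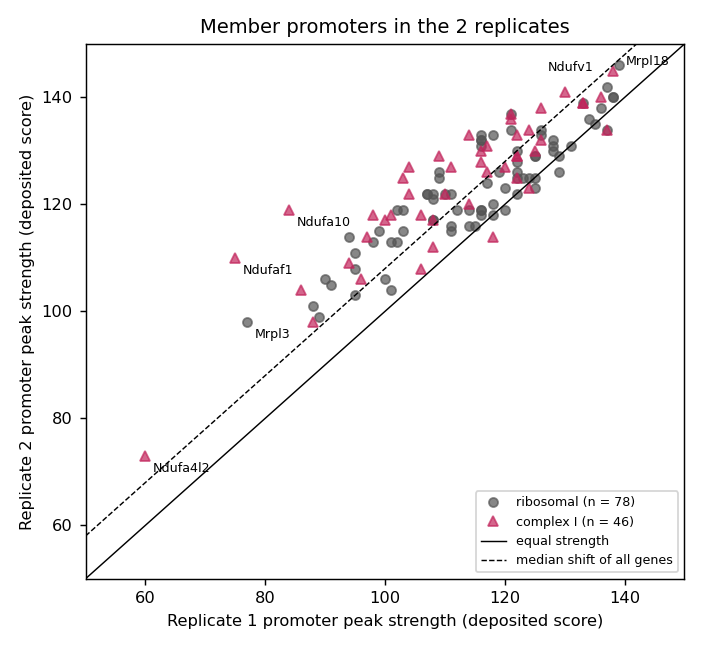
Promoter peak strength of each member (points, deposited score) in replicate 1 (horizontal axis) and replicate 2 (vertical axis), ribosomal genes as grey circles and complex I genes as red triangles. The solid line marks equal strength and the dashed line the median shift of 8 over all open genes; Ndufaf1 and Ndufa10 lie farthest above the dashed line and Ndufa4l2 is weakest in both.

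The promoter peak of a member sat on its TSS more often than at open genes in general. The strongest peak covered a TSS in 103 members (83.1%) in replicate 1 and 100 (80.6%) in replicate 2, against 55.2% and 53.2% of all open genes. Its centre lay at a median of -28 bp from the nearest TSS (negative upstream) in replicate 1 and -28.5 bp in replicate 2, against -41 and -44 bp over all open genes. For ribosomal genes the median was -26 bp in both replicates and for complex I genes -30 bp in both. Members have a median of 4 annotated TSSs and all genes 3, which was not adjusted for. In 119 members (96.0%) the strongest peaks of the replicates overlapped, against 90.7% of all open genes. They had the same start in 50 of 124 members and in 5737 of 15300 open genes.

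In 5 members the strongest peak lay over 300 bp from every annotated TSS in at least 1 replicate: Mrps18b, Mrps28, Ndufa11, Ndufa13 and Ndufa4l2. At Ndufa13, an accessory subunit also known as GRIM-19, the strongest peaks of the replicates were 1560 bp apart, with 122 on the upstream side of its only annotated TSS and 129 on the downstream side. The Ndufa11 peak, with 122 and 133, lay at -716 and -696 bp.

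**Figure D3:**
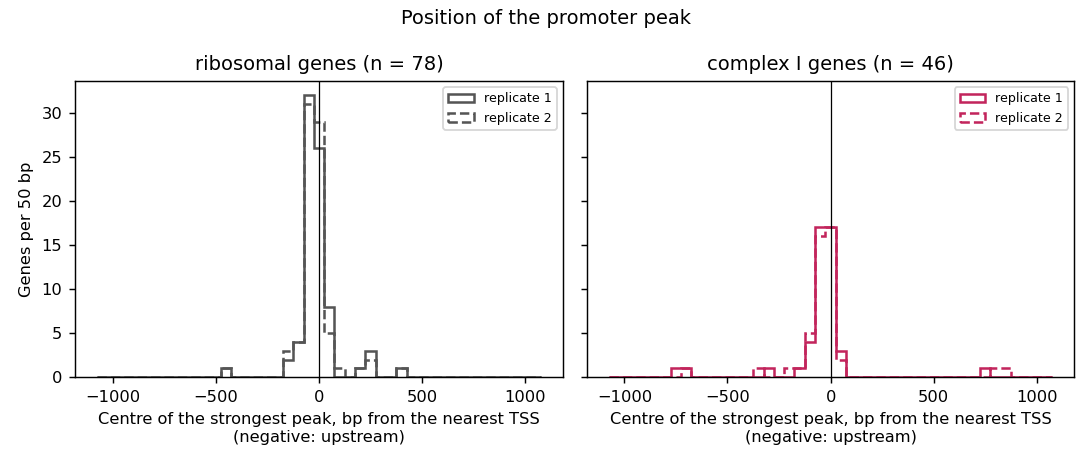
Number of members (vertical axis, per 50 bp) by distance of the centre of the strongest peak from the nearest TSS (horizontal axis, bp, negative upstream), ribosomal genes on the left and complex I genes on the right, with a solid line for replicate 1 and a dashed line for replicate 2. Most centres fall close to and just upstream of the TSS, with medians of -26 bp and -30 bp, and the few distant ones include Ndufa11 and Ndufa4l2.

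Ribosomal promoters more often held a single peak than open genes did, and complex I promoters did not in replicate 1. Members together held a median of 2 peaks within 1 kb of their TSSs in each replicate, against 3 for all open genes. The complex I genes alone had medians of 2 and 3. A single peak was found at 34.6% and 20.5% of ribosomal genes and at 17.4% and 15.2% of complex I genes, against 18.4% and 12.9% of all open genes. Where a second peak was present its median strength was 50 and 61 at members and 60 and 76 at all open genes. The hotspots at the strongest peaks had median widths of 795 and 1263.5 bp at members and 812 and 1457 bp at all open genes.

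Many member promoters faced another gene. A divergent neighbour was counted when the TSS of another protein-coding gene lay within 1 kb upstream on the opposite strand. This held for 48 of 124 members (38.7%), 29 ribosomal (37.2%) and 19 complex I genes (41.3%), against 11.0% of all protein-coding genes and 15.2% of the open ones. The genes for cytosolic ribosomal proteins, which share the ribosomal function but not the compartment, stood at 18.8%. Other lists of the same machinery ranged widely: the share was 75% of 4 complex II genes, 44.4% of 9 complex III genes, 38.9% of 18 ATP synthase entries and 5.56% of 18 complex IV entries. It was 40% of the 5 mitochondrial ribosomal genes of other names, 37.5% of the 8 complex I assembly genes of other names and 22.2% of the 9 mitochondrial translation factors. The median distance between the TSSs was 64.5 bp for members and 106 bp for all genes with such a neighbour. At 28 of these 29 ribosomal and 17 of these 19 complex I genes, the same peak was the strongest of the gene and its neighbour in both replicates. The strength of such a peak cannot be assigned to either gene. Members that are neighbours of each other, such as Mrpl46 and Mrps11, count once each. The share with a common peak was not counted over all genes with such a neighbour.

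The closest pairs were Ndufb11 with the splicing regulator Rbm10 and Ndufs1 with the translation elongation factor Eef1b2, at 3 bp each. Ndufa7 lay 10 bp from the cytosolic ribosomal gene Rps28, and their shared peak had 124 and 134. Among ribosomal genes Mrpl54 lay 26 bp from Apba3, Mrps18c 29 bp from the helicase gene Helq and Mrps34 29 bp from Eme2. Several partners were themselves genes of translation or of mitochondria. Mrps12 lay 172 bp from Sars2, the mitochondrial seryl-tRNA synthetase, Mrpl43 116 bp from Twnk, the mitochondrial DNA helicase, and Mrpl49 59 bp from Fau, which encodes a cytosolic ribosomal protein. These 3 partners and that of Mrpl18, the chaperonin gene Tcp1 at 37 bp, were picked for their known roles after the pairs were seen.

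In a few places members shared a promoter peak with each other. Mrpl36 and Ndufs6, a ribosomal and a complex I gene with TSSs 51 bp apart, had the same strongest peak at chr13:73328476-73328625, with 108 and 117. Mrpl46 and Mrps11, from the large and the small subunit and 30 bp apart, shared the peak at chr7:78783016-78783165, with 107 and 122. Mrpl47 and Ndufb5 shared a peak of 133 and 139 at chr3:32736836-32736985 in replicate 1 and chr3:32736856-32737005 in replicate 2. The stretch of the Mrpl36 and Ndufs6 peak around its NRF1 word, chr13:73328478-73328507 on the minus strand, is shown because both genes have this peak as their strongest. All 30 bases are annotated as untranslated region.

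Ndufs6 and Mrpl36: gactgctgtgCGCCTGCGCcggcacttggt

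Strength was compared between members with and without a divergent neighbour. Divergent ribosomal genes had medians of 116 and 125 and the other ribosomal genes 116 and 122. Divergent complex I genes had 116 and 130 and the others 114 and 123. Over all open genes the medians were 122 and 128 with a divergent neighbour and 106 and 115 without. The medians of members were thus closer to each other than those of all open genes, a difference that was not tested.

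Because many member promoters are rich in CpG, they were also set beside genes of like CpG content, a comparison added after the data were seen. Of 4472 protein-coding genes with a CpG ratio between 0.653 and 0.804, the interquartile range of the members, 97.9% were open. Their median strengths were 116 and 123, beside 117.5 and 125 for the 62 members in that range. The gap in strength between members and the background was thus smaller within this range of CpG content. The share with a divergent neighbour was 35.5% in those members and 18.9% in those genes. A TSS lay inside the strongest peak in 87.1% and 85.5% of the members and in 60% and 57.4% of the genes.

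Sequence words of 8 factors were searched for on both strands of the strongest promoter peak of each gene, 150 bp. A match says that the letters are there and does not show that a factor is bound. The NRF1 word GCGCANGCG, which nearly reads the same on both strands so that 1 site can match on each, was found in 25 members (20.2%) in replicate 1 and 26 (21%) in replicate 2. Over all open genes it was found in 9.89% and 9.52%. The ETS word CCGGAAGT was in 14 members (11.3%) in each replicate, against 6.02% and 5.9%. The YY1 word AAGATGGCG was in 11 members (8.87%) and 10 (8.06%), against 1.39% and 1.32%. At least 1 of these 3 words was present in 38.7% and 39.5% of members and in 16.3% and 15.9% of all open genes, and no member held all 3.

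The other 5 words stood near or below the background. The SP/KLF word GGGCGGG was in 31.5% of members in each replicate, against 36.3% and 35.4% of all open genes. The NFY word AGCCAAT was in 11.3% and 10.5% of members, against 9.44% and 9.18%. The CREB/ATF word TGACGTCA was in 3.23% and 4.03%, against 2.81% and 2.86%. The E-box CACGTG, the core bound by MYC and USF factors, was in 2.42% and 4.03% of members and in 6.97% and 6.78% of all open genes. The ZNF143 word ACTACAATT was in no member in either replicate, against 0.569% and 0.556% of all open genes.

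Ribosomal and complex I genes had the NRF1 word at like shares, 21.2% ± 0.907 and 19.6% ± 0 (SD, n = 2 replicates). The ETS word was in 14.1% ± 1.81 of ribosomal and 6.52% ± 3.07 of complex I genes. The NFY word went the other way, with 7.69% ± 0 of ribosomal and 16.3% ± 1.54 of complex I genes. The SD covers only the shift of the peak between replicates, since the DNA is the same, and these shares rest on few genes: 6 ribosomal and 7 complex I genes held the NFY word in both replicates. Within the ribosome the large subunit genes held the NRF1 word in 26.5% and 30.6% and the small subunit genes in 10.3% and 6.90%. The YY1 word was in 6.12% of large subunit genes in each replicate and in 17.2% and 13.8% of small subunit genes. In a window of 300 bp around the peak centre these contrasts were narrower, with the NRF1 word in 28.6% and 30.6% of large and 17.2% and 13.8% of small subunit genes. The YY1 word was then in 10.2% of large and 17.2% of small subunit genes in each replicate.

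The NRF1 word was present in both replicates at 15 ribosomal genes, among them Mrpl10, Mrpl12, Mrpl14, Mrpl22 and Mrps9, and at 8 complex I genes, Ndufa5, Ndufa8, Ndufaf4, Ndufaf5, Ndufb4, Ndufb10, Ndufs5 and Ndufs6. The ETS word was present in both at 10 ribosomal genes, among them Mrpl18, Mrpl3, Mrpl43 and Mrps22, and at 2 complex I genes, both core subunits, Ndufs1 and Ndufs3. Mrps26 held both words, and Mrps27 held the ETS word in both replicates and the YY1 word in replicate 1. In the CpG-matched genes described above the NRF1 word was in 10.8% and 10.4%, beside 21% of the members of that range in each replicate. For the ETS word the shares were 7.86% and 7.70%, beside 11.3% in each replicate.

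**Figure D4:**
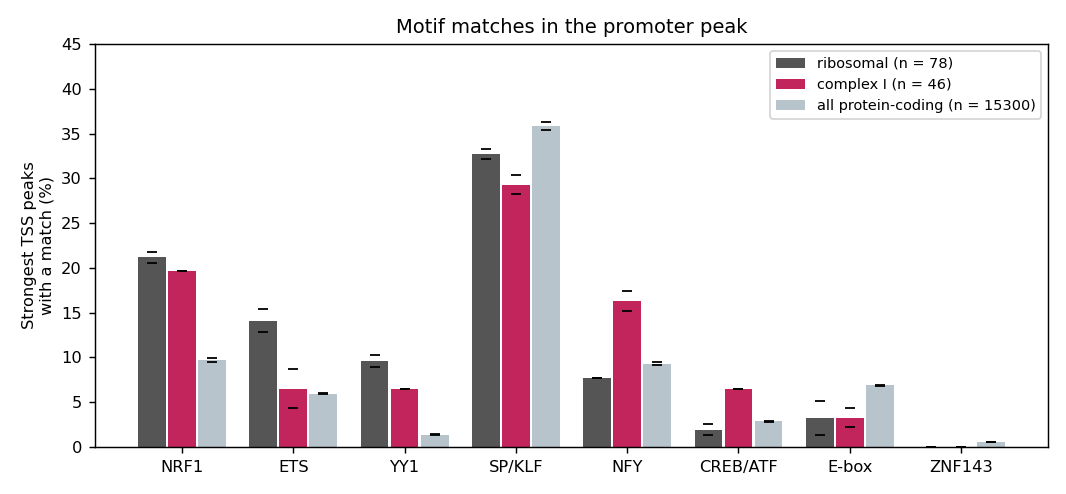
Share of genes whose strongest promoter peak holds each word (vertical axis, percent), for ribosomal genes (dark grey), complex I genes (red) and all open protein-coding genes (light grey). Bars are means of the 2 replicates and dashes the replicates; the NRF1 and YY1 words stand above the background in both families, the ETS word mainly in ribosomal genes and the NFY word mainly in complex I genes.

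Members with the NFY word had stronger promoters than those without: the 13 with it in both replicates had medians of 128 and 134, and the 110 without it in either had 115.5 and 122. The same ordering held over all open genes, with 125 and 129 against 107 and 116. Of the 5 strongest genes of each family, 5 of 10 held it in at least 1 replicate: Mrps12, Mrpl41, Mrpl48, Ndufa6 and Ndufa2. Of the 10 strongest of each family, 6 of 20 held it, beside 11.3% and 10.5% of all members. The 23 members with the NRF1 word had 117 and 126, and the 96 without it 116 and 123. The 10 members with the YY1 word had 107.5 and 121.5 and the 113 without it 117 and 125, so among members that word marked no stronger promoters. Over all open genes the medians were 113.5 and 123 with the YY1 word and 109 and 117 without it. For the NRF1 word they were 117 and 122 with it and 108 and 117 without.

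The YY1 word stood out for where it lay. It contains the letters ATG, and in 10 of 11 member matches in replicate 1 (90.9%) and 9 of 10 in replicate 2 (90.0%) this ATG was an annotated start codon. Over all matches in open genes the share was 37.7% and 35.1%. The centre of the word lay a median of 10 and 9.5 bp downstream of the nearest TSS in members, against 3 bp over all open genes. It read along the strand of the gene in 10 of 11 and 9 of 10 member matches, against 71.8% and 73.2%. The 30 bases around the sites are shown because the position of the ATG can be read in them; each is printed on the strand of the word, with the word in capitals.

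Mrpl35: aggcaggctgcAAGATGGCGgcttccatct
Mrpl42: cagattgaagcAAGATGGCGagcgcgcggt
Mrpl46 and Mrps11: gggaagacagaAAGATGGCGgcgcccgtag
Mrps10: tcagggcaccAAGATGGCGgcgcgcgcagc
Mrps18a: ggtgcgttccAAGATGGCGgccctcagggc
Mrps24: cgcgccggcccAAGATGGCGtggtccgcgt
Mrps27: ggtgcgctccAAGATGGCGgctcccatggt
Ndufa9: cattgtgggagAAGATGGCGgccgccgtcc
Ndufc1: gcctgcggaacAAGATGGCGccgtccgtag
Ndufs4: ttgcctacaggAAGATGGCGgcggtctcaa

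The Mrpl42 site is the exception, whose ATG is not annotated as a start codon. The sites lie at chr6:71823743-71823772 (Mrpl35), chr10:95501904-95501933 (Mrpl42), chr7:78783013-78783042 (Mrpl46), chr11:5707647-5707676 (Mrps24), chr6:126849097-126849126 (Ndufa9), chr3:51408915-51408944 (Ndufc1) and chr13:114388041-114388070 (Ndufs4), all on the minus strand. Those of Mrps10 at chr17:47368894-47368923, Mrps18a at chr17:46111005-46111034 and Mrps27 at chr13:99344790-99344819 are on the plus strand. Mrpl46 and Mrps11 share 1 match, which is the start of Mrpl46 and reads against Mrps11. At Mrps27 the match lay inside the peak in replicate 1 only.

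The share of complex I genes with the YY1 word depended on the width searched. In a window of 300 bp around the peak centre it was 17.4% in replicate 1 and 15.2% in replicate 2, in place of 6.52% in each, and in ribosomal genes it was 12.8% in each, in place of 9.62% on average. Over all open genes it was then 3.35% and 3.41%. The window added Ndufa2, Ndufa6, Ndufaf8, Ndufs6, and in replicate 1 Ndufs7, besides Mrpl36 and Mrpl37. In this window the ATG was a start codon in 15 of 18 and 14 of 17 member matches, against 46.5% and 45.3% of all. The member matches lay at 16 and 15 distinct sites, since Mrpl46 with Mrps11 and Mrpl36 with Ndufs6 share a peak and count it once each. In the CpG-matched members the word was in 4.84% and 3.23%, against 1.71% and 1.53% of the genes of that range, a lower share than in all members.

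Away from promoters, distal peaks were those over 1 kb from every annotated TSS of any gene. They were counted within 50 kb of any TSS of a member when found in both replicates with an overlap of at least 1 bp. Ribosomal genes had a median of 5.5 such peaks and complex I genes 5, and all protein-coding genes 5. Counted within each replicate alone, the medians were 7 and 7 for ribosomal, 6 and 7 for complex I and 7 and 8 for all genes. The families differed by 0.5 ± 0.707 (SD, n = 2 replicates) in these medians, which is within the spread. Members differed from all genes in the tails: their interquartile range was 3 to 7, against 2 to 9, and 2 members (1.61%) had none, against 12.9%. Those were Mrpl1 and Ndufa4.

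The 696 distinct distal peaks near members had median strengths of 52 and 64.5, against 45 and 55 for all 111166 distal shared peaks. Of the pairs of a member and a distal peak, 7.07% lay inside the body of the member, so most distal peaks near a member were outside it. This share depends on the length of the genes and was not computed over all genes. The median number of other protein-coding genes with a TSS close by, on which no adjustment was made, was 3 for members and 2 for all genes. No distal peak can be assigned to a member from these data.

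Mrpl23 had the most, with 29 in replicate 1, 33 in replicate 2 and 24 shared, although its promoter was among the weakest. The strongest of them lay inside the gene, 1952 bp from a TSS, with 103 and 109. Mrps23 had 22 and 29, of which 17 were shared, while Mrpl14 and Mrpl58, the latter a release factor built into the large subunit, had 14 each and Mrpl10 had 12. Among complex I genes Ndufb4 had 25 and 20, of which 16 were shared, and Ndufa4l2 had 19 and 50, of which 16 were shared. Ndufb9 had 11 and Ndufa11 had 10. Mrpl23 and Ndufa4l2 thus combined few or weak promoter peaks with many distal ones.

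The strongest distal peak near any member in replicate 1 lay inside Mrps27, 7732 bp from its TSS at chr13:99353276-99353425, with 130 and 131. In replicate 2 a distal peak near Mrps18b was higher, with 117 and 133. The promoter of Mrps27 had 118 and 133, and 8 of the distal peaks within reach of Mrps27 lay inside the gene. Mrpl24 had a distal peak of 129 and 131 at 39307 bp. At Mrpl3 and Ndufaf1, weak at their promoters, the strongest distal peaks had 37 and 58, and 30 and 40. Members next to each other shared their distal peaks: Mrpl36 and Ndufs6 had the same 6, Mrpl46 and Mrps11 the same 3, and Mrpl47 and Ndufb5 the same 2.

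**Figure D5:**
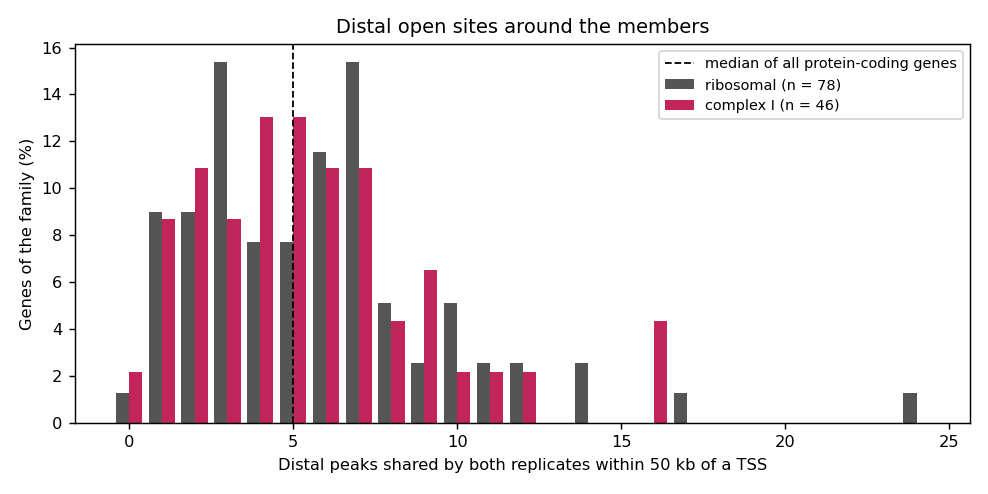
Share of ribosomal (dark grey) and complex I genes (red) by number of distal peaks shared by both replicates within 50 kb of a TSS (horizontal axis; vertical axis in percent of the family). The dashed line is the median of all protein-coding genes, 5; both families centre on it, and Mrpl23 with 24 is the farthest to the right.

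Other genes of the same machinery, taken from lists by function, were open nearly throughout. The 5 mitochondrial ribosomal proteins with other names, Dap3, Ptcd3, Chchd1, Aurkaip1 and Gadd45gip1, were all open, with medians of 116 and 123 and the lowest values at Gadd45gip1, 74 and 93. All 9 mitochondrial translation factors were open, with medians of 114 and 118. The strongest was the elongation factor gene Tufm with 134 and 138. The 8 complex I assembly genes of other names were open with medians of 124 and 131.5, led by Tmem126b with 136 and 136 and Foxred1 with 132 and 142.

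The regulators listed with them were open in 12 of 12 cases. Nrf1 had 104 and 123, Gabpa, which encodes the ETS subunit of GABP, had 127 and 136, and Yy1 had 126 and 138. The coactivator gene Ppargc1a, known for inducing mitochondrial genes in brown fat and muscle, was the weakest of the list with 67 and 78. The cytosolic ribosomal protein genes were open in 77 of 80 cases, with medians of 124 and 130. They held the NRF1 word in 10.4% and 5.19%, the ETS word in 16.9% and 15.6% and the YY1 word in 2.6% and 1.3%. Against these, members were higher for the NRF1 and YY1 words and lower for the ETS word in both replicates. The NRF1 word was not particular to members. It was in 35.3% and 41.2% of 17 open ATP synthase genes. In each replicate it was in 50% of 4 complex II, 22.2% of 9 complex III and 21.4% of 14 open complex IV genes. It was in 0% of the 5 mitochondrial ribosomal genes of other names and 12.5% of the 8 complex I assembly genes of other names. For the 9 mitochondrial translation factors the shares were 11.1% and 0%.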

How the data were processed

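The DNase-seq peak and hotspot files of both biological replicates (1 group) were used as deposited by the authors on mm10, per the labels. Peaks were called per replicate, and carry a whole-number score deposited by the authors whose definition, like the aligner, caller and thresholds, is not given in the sources used here. Hotspots carry the −log10 of a q-value, deposited by the authors, which was not used to filter. A missing peak does not show closed chromatin. Of 208148 and 229803 peak lines, 28 and 47 repeats were dropped, and mitochondrial and scaffold peaks were left out.

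Genes and TSSs came from GENCODE M21 and sequence from RefSeq's GRCm38.p6 assembly, with the same chromosome sequences as mm10. Peaks were joined to TSSs within 1 kb. Replicate peaks were paired one to one by best overlap of at least 1 bp, and a distal shared peak had both partners distal. Python 3.11.15, numpy 2.4.6, pandas 2.3.3, scipy 1.17.1 and pysam 0.24.0 were used, and counting and motif steps were tested on simulated data.

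No test was run: genes are not replicates, and 2 replicates measure only their own spread. The members, lists, motifs and alternatives were chosen with earlier results of these data known. Genes were named by rule: in each family the 5 strongest, 5 weakest, 5 with most distal shared peaks, 3 with the largest replicate difference and 3 with the closest divergent neighbour, and the core subunits, Ndufa4 and Ndufa4l2. Others were named after their values were seen. Some genes that the rule takes are counted in their groups but not reported here. Alternatives changed the TSS window, the TSSs used, the peaks kept, the distal distance, the overlap, the neighbours, the motif window and the replicates. The sequence of Ndufa2 is not printed here.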

Additional observations from a re-analysis of the deposited data

How the results depend on the processing

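The count of open members and the share with a divergent neighbour stayed close to their reported values under every alternative tried. Of 102 recomputed values, 78 were close to the reported value and 24 moved beyond it. Close meant within 1.5 times for a count of members, within the 95% Wilson interval for a share with a divergent neighbour, and within 1 SD between replicates otherwise. The percentile scale was judged by its own SD. Each of 2 replicates lies within 1 SD of their mean, so leaving out 1 could not move a strength, a strength difference or a motif share. Nor could it lower a count of open members. For these values the outcome was fixed in advance, and they are part of the 78. With the mean over all promoter peaks of a gene in place of the strongest, the median strengths were 83.9 for ribosomal and 80.7 for complex I genes, and the difference was 3.25 in place of -1.50. On the scale of percentiles among all peaks it was -0.318 ± 0.697 (SD, n = 2). Leaving out a replicate gave -4 and 1. The median number of distal shared peaks was 2 in both families within 25 kb, and 11 for ribosomal and 10 for complex I genes within 100 kb. With the stronger 50% of peaks it was 3 and 2.5. For ribosomal genes it was 5 with the 5'-most TSS only, 5 with an overlap of 75 bp and 6 with distal set by protein-coding TSSs. Leaving out a replicate gave 7 to 7 for ribosomal and 6 to 7 for complex I genes, as fewer replicates had to hold the peak. A 300 bp window raised the ribosomal shares to 24.4% for NRF1, 12.8% for YY1, 40.4% for SP/KLF and 8.97% for NFY. In complex I genes it gave 21.7% for NRF1, 16.3% for YY1, 37.0% for SP/KLF and 10.9% for the E-box, as more sequence was searched. Over all open genes the same window gave 13.7% and 13.4% for NRF1 and 3.35% and 3.41% for YY1. For SP/KLF it gave 47.9% and 47.0%, for NFY 11.5% and 11.4%, and for the E-box 10.4% and 10.3%. No paired analysis was possible because the replicates form 1 group and no comparison between groups was made.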

Other observations

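The other respiratory chain complexes were read in the same way as a description. The 4 genes of complex II and 9 of complex III were open in both replicates, with median strengths of 118 and 129 for complex II and 115 and 124 for complex III. Of 18 gene entries named for nuclear subunits of complex IV, 14 were open. The 4 without a promoter peak in both replicates, Cox6a2, Cox7b2, Cox8b and Cox8c, are isoform genes known from muscle or testis. Cox4i2, another isoform gene, had 46 and 60, below all 124 ribosomal and complex I genes. The paralogues Cox4i1, Cox6a1 and Cox8a had 110 and 116, 125 and 123, and 130 and 135. Isoform genes were not uniformly weak: Cox6b2 had 113 and 119 and Cox7a1 had 99 and 108. Of 18 ATP synthase entries 17 were open, with medians of 127 and 125, and the entry without a peak was the second of 2 with the symbol Atp5o.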
